A study of Mus musculus with 12 samples.

Results

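Among CD4 intraepithelial T lymphocytes (IELs) of the mouse small intestine that had lost the ThPOK reporter, the cells with surface CD8a were set against the cells without it. The 4 arrays labelled ThPOK- CD8a+ (called CD8a+ below) were compared with the 4 labelled ThPOK- CD8a- (called CD8a-), that is 8 of the 12 arrays. The other 4 arrays, of ThPOK+ CD8a- cells (called ThPOK+), entered the fit for the estimate of the spread. Each subset had 2 replicates from each of 2 hosts, so that the arrays formed 4 sets of 3, all sorted by flow cytometry on the reporter and surface CD8a, and every difference was taken inside a set. All mice were 10 to 12 weeks old, and all cells carried the B6 ThPOK-GFP reporter allele, in which green fluorescent protein reports ThPOK. WT cells came from reporter mice that had not been manipulated. TR cells came from RAG-/- recipients, which lack their own T and B cells, after transfer of naive CD4 T cells of the reporter strain, a model of colitis. The labels do not give the number of animals behind an array, and nothing says that the replicates were separate mice, so the error values below may be partly technical.

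ThPOK, encoded by Zbtb7b, is the transcription factor that holds CD4 T cells in the helper programme and represses genes of the CD8 cytotoxic lineage, and Runx3 is its counterpart in CD8 T cells. In the gut epithelium some mature CD4 T cells lose ThPOK and begin to express CD8a as a homodimer, together with granzymes and receptors shared with natural killer (NK) cells. The comparison asks which transcripts differ with CD8a once ThPOK is gone.

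The arrays were Illumina MouseRef-8 BeadArrays, on which each probe was read from a median of 36 to 41 beads per array. Of 25697 probes, 14635 were detected on at least 2 arrays and represented 10612 genes. Levels are given as normalised log2 signal and differences as log2, always CD8a+ minus CD8a-, with the standard error (SE) of limma's fit. Arrays of replicate 1 detected 12024 to 12139 probes in the ThPOK-negative subsets, and those of replicate 2 detected 6784 to 8195. The deposited log2 table gives the hosts of replicate 1 the other way round from the intensity table: the sorted log2 differences of the set named WT in one equal those of the set named TR in the other, within a tolerance of 1e-05. Sets are named here as in the intensity table. The difference inside a set does not depend on this, and results by host are also given with replicate 1 exchanged.

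The set of WT replicate 2 stood apart. Its CD8a+ and CD8a- arrays correlated at 0.849 over genes, against 0.949, 0.976 and 0.955 in WT replicate 1, TR replicate 1 and TR replicate 2. The SD over genes of its difference was 0.95, and that of the other 3 sets was 0.54, 0.37 and 0.51 in the same order. Markers of epithelium moved with it. The mean level of 9 measured epithelial markers, out of 12 listed, was 8.69 on its CD8a+ array and 6.41 on its CD8a- array, and those of the 6 other ThPOK-negative arrays lay between 6.06 and 7.37. For 11 measured markers of Paneth and goblet cells, out of 15, the means were 9.43 and 5.96, and Zg16, a secreted goblet cell protein, differed by 6.42 in that set. In WT replicate 1 the same 2 lists differed by 0.47 and 0.77, in TR replicate 1 by 0.03 and -0.06, and in TR replicate 2 by -0.06 and -0.33. The 5 measured T cell markers, out of 7, lay between 9.84 and 10.40 on all 8 arrays. The part of epithelial RNA in the results below was not tested beyond the fits given with it.

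**Figure D1:**
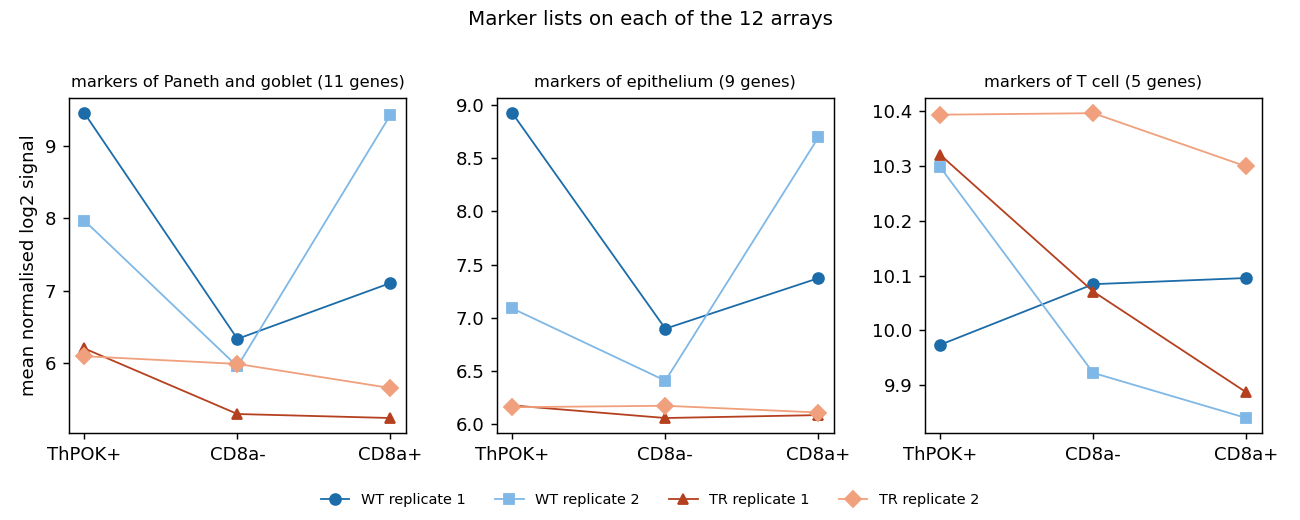
Mean normalised log2 signal (y axis) of Paneth and goblet cell, epithelial and T cell markers in the 3 sorted subsets (x axis), with a line for each set of arrays. The Paneth and goblet mean of the CD8a+ array of WT replicate 2 was 9.43, against 5.96 on its CD8a- partner.

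The genes used for the sort gave little separation at the RNA level. Cd8a was detected on all 8 arrays. Its CD8a+ levels were 7.35 and 8.44 in WT replicates 1 and 2 and 8.0 and 8.07 in TR replicates 1 and 2, and its CD8a- levels were 7.23, 7.94, 7.90 and 8.21 in the same order. The groups overlapped, and the CD8a- array of TR replicate 2 was brighter than its CD8a+ partner. The Cd8a difference was 0.15 (SE 0.21, 95% interval -0.32 to 0.61, n = 4 sets), which does not reach a doubling of the transcript. Cd4 was among the bright transcripts, at 10.44 to 10.66 on the CD8a+ arrays and 10.55 to 10.76 on the CD8a- arrays, with a difference of -0.10 (SE 0.20).

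Cd8b1 encodes the beta chain that CD8aa homodimers lack. It was detected on 2 of 4 CD8a+ arrays and 1 of 4 CD8a- arrays. Its CD8a+ levels were 6.90 and 7.27 in the WT sets and 5.61 and 6.17 in the TR sets, and its CD8a- levels were 5.72 and 5.08 in WT and 5.57 and 6.16 in TR. The differences were thus 1.18 and 2.19 in WT and 0.04 and 0.01 in TR, and a second Cd8b1 probe was detected on none of the 8 arrays. Over the 4 sets the measured difference was 0.86 (SE 0.37), and 0.43 with the Paneth and goblet mean as a covariate. Since the dim side was detected only once, the fold between the group means is given as a bound, at least 1.24-fold higher in CD8a+. The CD8a+ arrays without detection entered this bound at their measured signal, and it does not hold within the TR sets. Runx3 was detected on none of the 12 arrays, and Zbtb7b itself is not analysed here. The labelled loss of ThPOK was therefore not checked at the RNA level.

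No gene passed the threshold between CD8a+ and CD8a- cells. At a Benjamini-Hochberg adjusted p under 0.05 from limma, 0 of 10612 genes were called (0%), and the smallest adjusted p was 0.409, for B3galt6. At an unadjusted p under 0.05 there were 541 genes, 257 with higher signal in CD8a+ (2.42% of all genes) and 284 with lower signal (2.68%). The higher share of the 541 was 47.5%, and it was 59.8% under median scaling. Over all genes, 741 were higher in 4 of 4 sets (6.98%) and 777 were lower in 4 of 4 (7.32%), together 14.3%, where equal odds in each set would give 12.5%. The 4 CD8a+ arrays lay wholly above the 4 CD8a- arrays for 74 genes (0.697%) and wholly below them for 67 (0.631%). With 4 pairs, an exact sign-flip test of a single gene cannot give a two-sided p under 0.125. For 7918 genes, 74.6% of those tested, the 95% interval of the difference lay within 2-fold in both directions. The gene values that follow are therefore descriptions of the transcripts that stood furthest apart in the same direction in every set, together with the members of gene lists, and none is a called difference between CD8a+ and CD8a-.

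Since each array is a bulk sample, fewer cells with a transcript and less of it per cell cannot be told apart here. Klrd1 encodes CD94, the common partner of the NKG2 family of receptors on NK cells and cytotoxic T cells. Its levels on the CD8a+ arrays were 7.87 and 9.71 in WT replicates 1 and 2 and 8.26 and 7.72 in TR replicates 1 and 2, and on the CD8a- arrays they were 6.77, 7.20, 6.88 and 6.48. All 4 CD8a+ arrays lay above all 4 CD8a- arrays. The difference was 1.56 (SE 0.26, 95% interval 0.98 to 2.13), a 2.94-fold ratio, with an adjusted p of 0.895 in limma. By set it was 1.10, 2.51, 1.38 and 1.24. Leaving out WT replicate 2 gave a mean of 1.24, and with the Paneth and goblet mean as a covariate the difference was 1.27. In ThPOK+ cells Klrd1 was at 6.49 on average, close to the 6.83 of CD8a- cells.

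Klrd1 was the single gene of 14 measured NK-type receptors, out of 31 listed, with an unadjusted p under 0.05. Over all genes, 541 of 10612 had such a p. The median of the list was 0.17, beside -0.01 for all genes, but the median without WT replicate 2 was 0.02. Of the 14 members 9 were above 0, beside 5170 of 10612 over all genes. Klri1 and Klrb1c, which encode lectin-like receptors, differed by 0.63 (SE 0.29) and 0.61 (SE 0.39), with at most 1 CD8a- array detecting either and bounds of at least 1.08-fold and 1.12-fold higher. These bounds concern the group means, since Klri1 gave -0.19 in WT replicate 1 and Klrb1c gave -0.48 in TR replicate 2. Ncr1, the receptor that marks NK cells, had a probe but was detected on no array, so it was not among the genes tested. Adaptors through which such receptors signal were above 0 in 4 of 4 sets for 4 of 6 measured members, out of 10, beside 6.98% of all genes. Their median was 0.30 (0.19 without WT replicate 2), and no member had an unadjusted p under 0.05. Tyrobp, which encodes DAP12, differed by 0.98 (SE 0.56), of which the set of TR replicate 2 gave 2.49. Lat2, a scaffold related to LAT, differed by 0.42 (SE 0.35) with set values of 0.40, 0.45, 0.16 and 0.66. Fcer1g was detected on 1 CD8a+ array and 1 CD8a- array, and its value of 0.41 (SE 0.26) came from WT replicate 2 at 1.33, since the other 3 sets gave 0.14, 0.05 and 0.11.

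Cytotoxic effector transcripts were alike in median. Of 26 listed, 20 were measured, 10 were above 0 and 10 below, none had an unadjusted p under 0.05, and the median was 0.01. For 16 of the 20 (80%) the 95% interval lay within 2-fold, near the 74.6% of all genes. Gzmb, encoding granzyme B, was at 8.55, 9.91, 9.49 and 9.61 on the CD8a+ arrays of WT replicates 1 and 2 and TR replicates 1 and 2, and at 8.23, 9.46, 8.87 and 8.55 on their CD8a- partners. CD8a+ was the brighter array in each set, but the groups overlapped. The Gzmb difference was 0.61 (SE 0.32, 95% interval -0.10 to 1.33). Tnfsf10, encoding the death ligand TRAIL, differed by 0.63 (SE 0.40), with a set value of 2.28 in WT replicate 2 and -0.38 in TR replicate 1. Ctsw, a cathepsin of cytotoxic cells, was lower in 4 of 4 sets at -0.22 (SE 0.16).

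Receptors of the CD200R family also stood higher on the CD8a+ side. Cd200r1 encodes an inhibitory receptor of myeloid and T cells. Its CD8a+ levels were 7.34, 8.31, 8.08 and 7.32 in WT replicates 1 and 2 and TR replicates 1 and 2, and its CD8a- levels were 6.25, 6.43, 7.67 and 6.75. The groups overlapped only through the CD8a- array of TR replicate 1. The Cd200r1 difference was 0.99 (SE 0.34, 95% interval 0.22 to 1.75), and 0.64 with the Paneth and goblet mean as a covariate. Cd200r2, a related receptor of the same gene cluster, differed by 1.51 (SE 0.37), with set values of 1.33, 2.92, 0.49 and 1.29. Signal of its other probes was detected on at most 1 of the 4 CD8a+ arrays. Among 12 measured inhibitory receptors, out of 15, 2 were higher and 1 was lower at an unadjusted p under 0.05, beside 2.42% and 2.68% of all genes. The second higher member was Ceacam1, an adhesion receptor that epithelial cells also express, at 0.80 (SE 0.34), with 2.03 in WT replicate 2 and 0.43, 0.36 and 0.37 in the other sets. Ceacam1 was at 0.33 with the Paneth and goblet mean as a covariate. Its other probe, detected on 4 of 4 CD8a+ arrays and 1 of 4 CD8a- arrays, gave 0.44 on average but -0.49 in WT replicate 2. The lower member was Pecam1 at -0.40 (SE 0.17), which was detected on no CD8a+ array and had a bound of at least 1.06-fold lower. That bound concerns the group means, since TR replicate 2 gave 0.09.

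**Figure D2:**
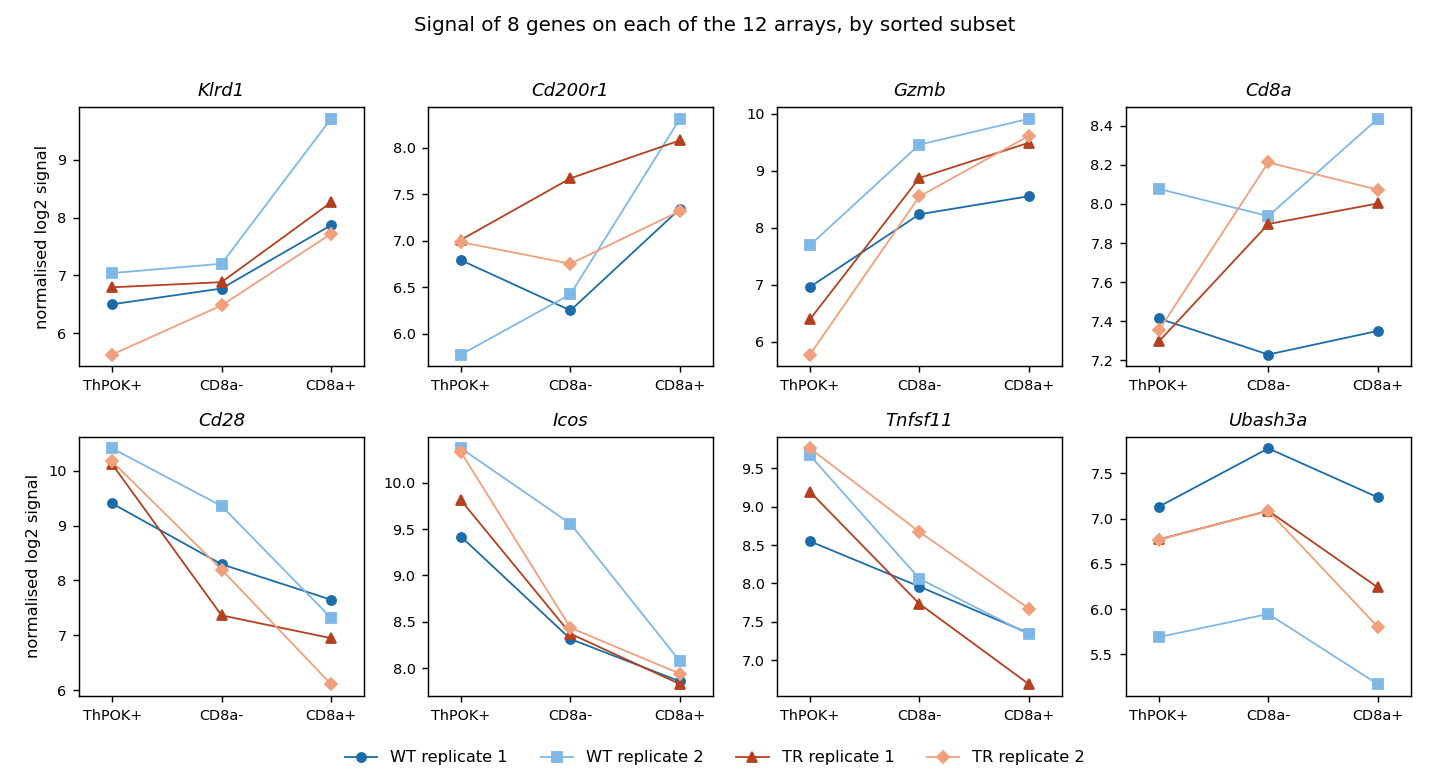
Normalised log2 signal (y axis) of 8 genes on the 12 arrays, by sorted subset (x axis), with a line joining the 3 arrays of each set. Klrd1 separated CD8a+ from CD8a- on all arrays, whereas Cd8a overlapped, and Tnfsf11 was lower on each CD8a+ array than on any CD8a- array.

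On the lower side stood several genes of helper T cells. Of 10 measured members of the CD4 helper list, out of 11, 9 were below 0 and 5 were lower in 4 of 4 sets. An unadjusted p under 0.05 was found for 3, all lower. Over all genes, 5440 of 10612 were below 0, 7.32% were lower in 4 of 4 sets and 2.68% were lower at that p. The median of the list was -0.33, or -0.19 without WT replicate 2. Cd28, the costimulatory receptor for B7 ligands, had CD8a+ levels of 7.65, 7.32, 6.95 and 6.11 in WT replicates 1 and 2 and TR replicates 1 and 2, and CD8a- levels of 8.30, 9.36, 7.37 and 8.20. CD8a+ was the dimmer array in each set, and only the CD8a- array of TR replicate 1 fell within the CD8a+ range. The Cd28 difference was -1.29 (SE 0.38, 95% interval -2.15 to -0.44), with replicate 2 sets at -2.03 and -2.08 and replicate 1 sets at -0.65 and -0.41.

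Tnfsf11, which encodes the cytokine RANKL, was the most even of the 3. Its CD8a+ levels of 7.35, 7.34, 6.69 and 7.67 all lay below its CD8a- levels of 7.96, 8.06, 7.73 and 8.67. The Tnfsf11 difference was -0.84 (SE 0.22), and -0.75 with the Paneth and goblet mean as a covariate. Icos, a costimulatory receptor related to Cd28, was at 7.83 to 8.08 on the CD8a+ arrays and 8.31 to 9.56 on the CD8a- arrays, again without overlap. Its difference was -0.74 (SE 0.22), of which WT replicate 2 gave -1.48 and the other sets -0.46, -0.54 and -0.49. The member above 0 was Il6st, the shared signalling chain of the interleukin-6 receptor family, at 0.78 (SE 0.38), with set values of -0.17, 1.91, 0.28 and 1.09.

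Genes of the Th17 programme, the interleukin-17 branch of helper cells, had the lowest median of the lists at -0.49, which was -0.31 without WT replicate 2. Of 17, 14 were measured and 12 of these were below 0, with 1 lower and 1 higher at an unadjusted p under 0.05. Over all genes, 5440 of 10612 were below 0, and 2.68% were lower and 2.42% higher at that p. Il17a differed by -0.85 (SE 0.39), with -2.43 in WT replicate 2 and 0.06 in WT replicate 1, and was detected on 1 of 4 CD8a+ and 2 of 4 CD8a- arrays, so that no bound above 1 could be formed. Irf4, a factor needed for several helper fates, was lower in 4 of 4 sets at -0.55 (SE 0.27). The higher member, Il21r, encodes the interleukin-21 receptor. Its 2 detected probes gave 0.53 and 0.52, with set values of 0.60, 0.55, 0.16 and 0.80 for the brighter one (SE 0.16).

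Among lineage transcription factors, 26 of 34 were measured, 3 were lower and none was higher at an unadjusted p under 0.05, and the median was -0.11. The lower members included Runx2 at -0.74 (SE 0.30) and Id3 at -0.77 (SE 0.32). Over all genes, 2.68% were lower and 2.42% higher at that p. Runx2 is a Runt-family factor, and a second Runx2 probe gave 0.20, so its probes disagreed in sign. Id3, an inhibitor of E proteins, was detected on no CD8a+ array and 2 CD8a- arrays. Its bound was at least 1.11-fold lower. The Id3 set values were -0.06 and -0.15 in replicate 1 of WT and TR, and -1.40 and -1.47 in replicate 2.

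The rule for the most distant genes took, from 305 genes with an unadjusted p under 0.05, 1 sign in all 4 sets and detection on the brighter side, the 12 highest and the 12 lowest differences. The 12 highest ranged from 1.22 to 1.81 with SEs of 0.18 to 0.54, and adjusted p-values in limma of 0.409 to 0.895. The arrays of the 2 subsets did not overlap for 5 of the 12, beside 0.697% of all genes with CD8a+ wholly above. The rule used the same arrays, and its demands on sign and size favour such genes. The set of WT replicate 2 gave the largest difference for 10 of the 12, a larger share than the 46.6% of all genes in absolute size. Choosing genes by size favours those with a far value in this set, whose differences had the widest spread. Without that set the means of the 12 lay between 0.60 and 1.37. The 12 lowest ranged from -2.03 to -1.15 and did not overlap for 3, beside 0.631% of all genes with CD8a+ wholly below. They had their largest difference in WT replicate 2 for 9, and had means without that set of -1.53 to -0.60.

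**Figure D3:**
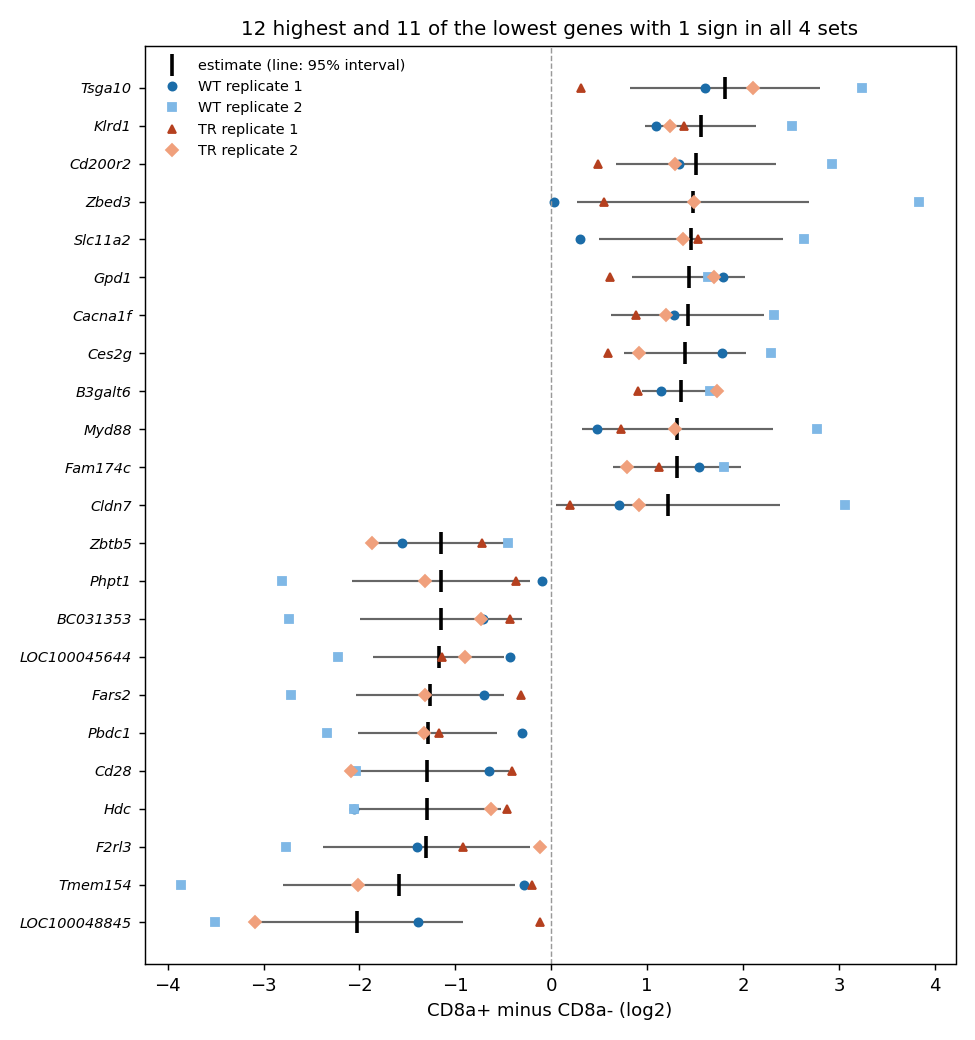
Difference CD8a+ minus CD8a- (x axis, log2) for the 12 highest genes and 11 of the 12 lowest (y axis) with 1 sign in all 4 sets. Bars mark the estimate, lines its 95% interval and symbols the 4 sets. WT replicate 2 lay furthest from 0 for 10 of the 12 highest genes.

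Besides Klrd1 and Cd200r2, the highest genes were of mixed roles. B3galt6, a galactosyltransferase that builds the linker of glycosaminoglycan chains, was at 7.68, 7.60, 7.89 and 7.38 on the CD8a+ arrays of WT replicates 1 and 2 and TR replicates 1 and 2, and at 6.54, 5.95, 6.99 and 5.65 on their CD8a- partners. The arrays did not overlap, and the set values of 1.14, 1.65, 0.90 and 1.73 were close. The B3galt6 difference was 1.35 (SE 0.18), and 1.36 with the Paneth and goblet mean as a covariate. ThPOK+ cells had 7.15, nearer to CD8a+ than to CD8a- cells.

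Tsga10, a testis gene of the sperm tail, had the highest difference at 1.81 (SE 0.44). One CD8a- array detected it, and its bound was at least 2.45-fold higher. Gpd1, the cytosolic glycerol-3-phosphate dehydrogenase, and Ces2g, a carboxylesterase, were detected on 4 of 4 CD8a+ arrays and on none of the CD8a- arrays. They were at least 1.67-fold and at least 1.57-fold higher, from measured differences of 1.43 and 1.39. Slc11a2, the iron transporter DMT1, differed by 1.46 (SE 0.43), and Cacna1f, a calcium channel subunit, by 1.42 (SE 0.35). Myd88, the adaptor of Toll-like and interleukin-1 receptors, differed by 1.31 (SE 0.44) without overlap, of which WT replicate 2 gave 2.77. Zbed3 at 1.47 (SE 0.54) had set values from 0.03 to 3.83. Fam174c differed by 1.31 (SE 0.29), again without overlap. Cldn7, a tight junction protein and itself one of the epithelial markers, differed by 1.22 (SE 0.52), with 3.06 in WT replicate 2, where the epithelial mean differed by 2.28. With the Paneth and goblet mean as a covariate, Cldn7 was at 0.53.

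Of the lowest genes, LOC100048845 had the largest difference at -2.03 (SE 0.49), with set values of -1.39, -3.50, -0.12 and -3.08. A second probe of that model gave -1.14, lower in 4 of 4 sets. Hdc, histidine decarboxylase, which makes histamine, was detected on 4 of 4 CD8a- arrays, 3 of 4 ThPOK+ arrays and no CD8a+ array. Its CD8a- levels were 7.24, 7.49, 5.78 and 6.51, and its CD8a+ levels were 5.18, 5.44, 5.32 and 5.88. The groups overlapped, since the lowest CD8a- array, of TR replicate 1, was below the highest CD8a+ array, of TR replicate 2. Hdc was at least 1.53-fold lower in CD8a+, from a measured difference of -1.30 (SE 0.34), and the differences were -2.06 in both WT sets against -0.46 and -0.63 in the TR sets. With replicate 1 exchanged, Hdc was at -1.26 in WT and -1.34 in TR.

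The remaining low genes were F2rl3, the thrombin receptor PAR4, at -1.30 (SE 0.48), Fars2, a mitochondrial phenylalanyl-tRNA synthetase, at -1.26 (SE 0.34), Phpt1, a histidine phosphatase, at -1.15 (SE 0.41), and Zbtb5, a zinc finger factor, at -1.15 (SE 0.32). Tmem154 at -1.59, LOC100045644 at -1.17 and BC031353 at -1.15 completed the group with Pbdc1. For Pbdc1 the chosen probe gave -1.29, without overlap, but a second detected probe gave 0.36. Zbtb5 was the one of these whose smallest difference, -0.45, was in WT replicate 2.

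T cell receptor signalling genes were close between the subsets. Of 26 listed, 25 were measured, 23 had an interval within 2-fold (92%, beside 74.6% of all genes), and the median was 0.02. Ubash3a, a phosphatase-like protein that dampens receptor signalling, was lower in 4 of 4 sets at -0.86 (SE 0.18), with set values of -0.54, -0.78, -0.85 and -1.28. Dgkz, a diacylglycerol kinase with the same dampening role, was higher in 4 of 4 sets at 0.45 (SE 0.19), although a second Dgkz probe gave -0.34. Its relative Dgka was lower in 4 of 4 sets at -0.40 (SE 0.22).

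Genes known from natural IELs formed a list that shares members with the NK-type, adaptor and effector lists, and Cd28 with the CD4 helper list. Of its 20 genes, 18 were measured. Of these 7 were higher in 4 of 4 sets and 2 were lower, where the shares over all genes were 6.98% and 7.32%. The list's median was 0.17 (0.06 without WT replicate 2), and 1 member was higher (Klrd1) and 1 lower (Cd28) at an unadjusted p under 0.05. Over all genes, 2.42% were higher and 2.68% lower at that p. The direction that each member takes in natural IELs was not used, so the counts of this list do not measure likeness to those cells. Nt5e, the ectonucleotidase CD73, was among the 7 at 0.41 (SE 0.21). Naive and circulating T cell genes had a median of -0.35 (-0.21 without WT replicate 2) over 12 of 14 members. Of these, 10 were below 0, beside 5440 of 10612 over all genes, and none had an unadjusted p under 0.05. The mean difference of the naive list was -0.38 and -0.60 in WT replicates 1 and 2 and -0.07 in both TR sets. With replicate 1 exchanged, WT would hold -0.07 and -0.60 and TR -0.38 and -0.07.

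Th1 cytokines and chemokines had 15 of 16 members measured, none at an unadjusted p under 0.05, and a median of -0.03. Il18r1, a chain of the interleukin-18 receptor, had the lowest value at -1.58 (SE 0.71), but WT replicate 2 alone gave -4.51 and the other sets -0.51, -0.64 and -0.66. Il18r1 was at -0.73 with the Paneth and goblet mean as a covariate. Ccl3, a chemokine of activated cytotoxic cells, was higher in 4 of 4 sets at 0.76 (SE 0.38), and Tnf differed by 0.48 (SE 0.23).

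The lists for gut residence, TGF-beta and retinoic acid, common gamma chain receptors and the SLAM family had medians of -0.10, -0.15, -0.20 and -0.25. They had 0, 1, 0 and 1 lower members and 0, 0, 1 and 0 higher members at an unadjusted p under 0.05. These lists had 16, 12, 16 and 7 measured members, and over all genes 2.68% were lower and 2.42% higher at that p. Without WT replicate 2 these medians were -0.04, -0.03, -0.08 and -0.00. Smad7, the inhibitor of TGF-beta signalling, was at -0.44 (SE 0.15), and Slamf1, a homophilic receptor, at -0.64 (SE 0.25) with both probes negative. In the residence list, Itgb1, the integrin beta 1 chain, was at -0.52 (SE 0.30), and P2rx7, an ATP-gated channel, at -0.30 (SE 0.17). Other detected P2rx7 probes gave -0.38, -0.77, -0.34 and 0.24, so the probes of that gene disagreed in sign. Stat5b, which signals below the gamma chain receptors, was at -0.33 (SE 0.17), and Slamf7, another SLAM receptor, at 0.68 (SE 0.36), with set values of 0.11, 1.38, -0.01 and 1.25.

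Lists for proliferation, ribosomal proteins, survival and immediate early genes had medians of -0.05, 0.01, -0.10 and -0.12 over 24, 31, 15 and 20 measured genes, and none of their members had an unadjusted p under 0.05. Mcm2, a replication helicase subunit, was at 0.39 (SE 0.18), Bbc3, the death factor PUMA, at -0.59 (SE 0.39), and Jun at -0.27 (SE 0.16). Other Bbc3 probes gave 0.11 and 0.25, so the probes of that gene disagreed in sign. The regulatory T cell list had 11 of 15 members measured and a median of 0.03. Its 1 member at an unadjusted p under 0.05, beside 541 of 10612 over all genes, was Swap70, a guanine nucleotide exchange factor. Swap70 was at 0.63 (SE 0.24), with set values of 0.43, 0.16, 0.97 and 0.96. The Th2 list, with 5 of 10 measured, had a median of -0.02 and no such member.

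**Figure D4:**
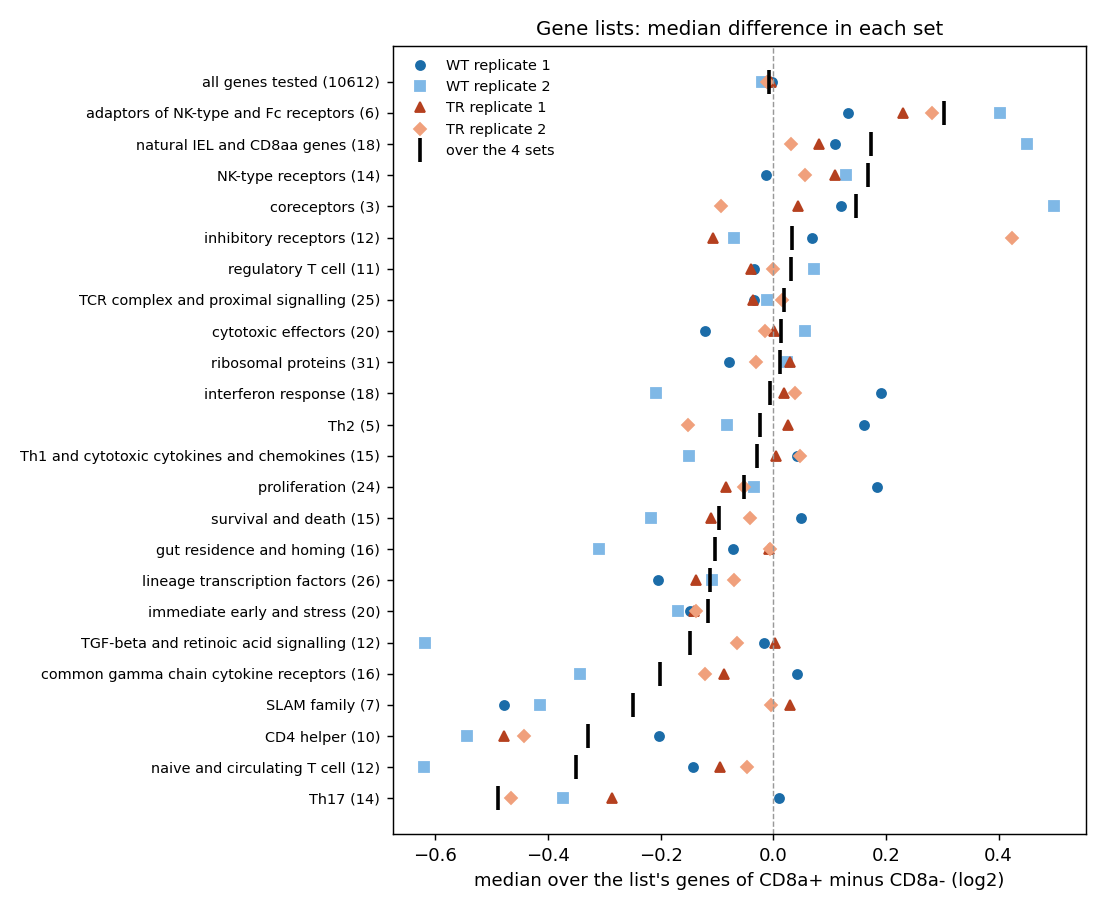
Median over each list's measured genes (y axis, number of genes in brackets) of CD8a+ minus CD8a- (x axis, log2). Symbols are the 4 sets and bars the median over the fitted differences, which was -0.49 for the Th17 list and 0.30 for the adaptors.

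The levels in ThPOK+ cells place these differences on a wider scale. The ThPOK+ arrays of the WT sets also carried epithelial signal. Their epithelial means were 8.92 in replicate 1 and 7.09 in replicate 2, and their Paneth and goblet means were 9.45 and 7.97, while those of TR were 6.18 and 6.16 and 6.20 and 6.10. With replicate 1 exchanged, 8.92 and 9.45 would belong to TR, and the TR replicate 1 means of 6.18 and 6.20 to WT. The part of this epithelial signal in the values against ThPOK+ was not tested. Between CD8a+ and ThPOK+ cells, limma called 60 genes at an adjusted p under 0.05, 27 higher (0.254%) and 33 lower (0.311%), and between CD8a- and ThPOK+ cells it called 6. The first comparison uses the CD8a+ arrays again, so its values and those against CD8a- cells are not independent. For the 27 higher genes the median was 1.87 in CD8a+ and 1.40 in CD8a- cells, each relative to ThPOK+. The CD8a+ minus CD8a- difference of the same genes ranged from -0.10 to 1.56, with a median of 0.40. For the 33 lower genes the medians were -2.03 and -1.44 (the first was -1.92 with 5 genes detected on no CD8a+ array at their bound), and the CD8a+ minus CD8a- difference ranged from -2.03 to 0.46, with a median of -0.46. The CD8a- mean lay between the other 2 means for 23 of the 27 and 29 of the 33. These genes were chosen for their distance between CD8a+ and ThPOK+, which by itself favours a CD8a- mean between them. The share over all genes was not computed, so the counts do not establish an order of the subsets.

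Gzmb was 2.68 above ThPOK+ in CD8a+ cells (adjusted p = 0.012 in limma) and 2.07 above it in CD8a- cells (adjusted p = 0.058). Lat2 had 2.83 and 2.42, and Swap70 had 2.05 and 1.42. Klrd1 differed from these, at 1.90 in CD8a+ and 0.34 in CD8a- cells. Mras, a Ras-like GTPase, and Scin, an actin-severing protein, were detected on no ThPOK+ array. Mras was at least 6.80-fold higher than ThPOK+ in CD8a+ and at least 3.06-fold higher in CD8a- cells, and Scin at least 4.26-fold and at least 1.71-fold. The Mras value of CD8a+ minus CD8a- was 1.15 (SE 0.44), with -0.28 in WT replicate 1, and that of Scin was 1.32 (SE 0.56), with -0.25 in TR replicate 1. Glp1r, the receptor of an incretin hormone, had 2.60 and 2.01.

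On the lower side, Ccr6, a homing receptor of Th17 cells, was as far below ThPOK+ in CD8a- cells, at -3.75, as in CD8a+ cells, at -3.68, and the 2 ThPOK-negative subsets differed by 0.06 (SE 0.35). Il17a, detected on 1 of 4 CD8a+ arrays, was at least 6.78-fold lower in CD8a+ than in ThPOK+ cells. Cd28 was at -3.01 and -1.72, and LOC100048845 at -3.67 and -1.65, each in CD8a+ and CD8a- cells in turn. Icos was at -2.05 and -1.31 and Tnfsf11 at -2.03 and -1.19. For Cd28, levels were 9.40 to 10.40 on the ThPOK+ arrays, 7.37 to 9.36 on the CD8a- arrays and 6.11 to 7.65 on the CD8a+ arrays, so that CD8a+ and CD8a- arrays overlapped, and neither overlapped ThPOK+.

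By host, limma called 0 genes within WT (0%), 0 within TR (0%) and 0 for the difference between the hosts (0%), with smallest adjusted p-values of 0.244, 1 and 0.965. At an unadjusted p under 0.05 there were 936, 158 and 454 genes. Within WT, leaving out the CD8a+ array of replicate 1 gave 274 called genes, and the WT difference then rested on the set of WT replicate 2 with the epithelial values above. Cd8b1 differed by 1.69 (SE 0.39) in WT and 0.03 (SE 0.39) in TR, a host difference of -1.66 (SE 0.55, adjusted p = 0.965). With replicate 1 exchanged these values became 1.12, 0.59 and -0.52.

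Some interferon response genes had the same layout. Oasl2, of the oligoadenylate synthetase family, differed by 2.34 in WT and 0.08 in TR, Ifi35 by 0.95 and 0.01, and Rtp4 by 1.66 and 0.08, and the adjusted p of each host difference was 0.965. These were the 3 higher members at an unadjusted p under 0.05 over both hosts among 18 measured interferon genes, out of 25, whose median was -0.01. Over all genes, 2.42% were higher at that p. Over both hosts Oasl2 differed by 1.21, Ifi35 by 0.48 and Rtp4 by 0.87. With the Paneth and goblet mean as a covariate these became 0.58, 0.34 and 0.49. The part of the epithelial signal in this layout was not tested. Oasl2 was detected on no CD8a- array and was at least 1.42-fold higher, and Ifi35, detected on 1 CD8a- array, gave no bound above 1. With replicate 1 exchanged, the host difference of Oasl2 was -0.20 (SE 1.09) and that of Ifi35 was -0.10 (SE 0.46), whereas that of Rtp4 was -1.21 (SE 0.74). Klrd1 was at 1.80 (SE 0.39) in WT and 1.31 (SE 0.39) in TR, and at 1.95 and 1.17 with replicate 1 exchanged. Cd28 was at -1.34 and -1.25, and at -1.22 and -1.36 after the exchange.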

How the data were processed

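RNA of sorted CD4 IELs was hybridised to Illumina MouseRef-8 arrays. Per the file headers, the authors exported summary probe intensity without normalisation from GenomeStudio 1.0.6. The deposited detection score is a fraction from 0 to 1, and the deposited bead number per probe is a count. A deposited log2 table, whose processing is not given in the sources used here, served as an alternative. Its rows were not matched to probes by the files, so it gave only counts of rows. Its hosts were compared with those of the intensity table through the sorted, median-centred log2 differences of each set.

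Intensities were corrected with the normexp method (negative-control level inferred from detection p, which is 1 minus the score), offset by 16, quantile normalised and log2 transformed with limma 3.58.1 in R 4.3.3. A probe needed a detection p under 0.05 on 2 or more arrays, and the brightest probe stood for its gene. Of all probes, 20736 matched a current symbol, 3841 an older one and 1120 kept the name in the file. The fit had the 3 subsets and the 4 sets as blocks on 12 arrays (6 residual degrees of freedom). Fits by host had 6 group means with replicate as a block (4 residual degrees of freedom). Same-numbered arrays deviated together in all 15 pairs of groups (correlations of 0.356 to 0.657). CD8a- with CD8a+ gave 0.500 in WT and 0.657 in TR. Pairs across the hosts were included, so a shift shared by all arrays of a replicate number would give this too. The correlations therefore cannot show pairing inside a host-replicate set, which was taken from the labels. Replicates of the ThPOK-negative groups correlated over genes at 0.806 to 0.906. The fit was tested on simulated data. For a gene with at most 1 detection on the dim side, a bound was formed: the mean of the bright group against, on each dim array, the higher of its own signal and the lowest detected signal. Arrays of the bright group without detection entered at their measured signal. Such a bound concerns the group means rather than each set, and leaves out their error.

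Genes were named by rule: the sort genes, genes called, the 12 highest and 12 lowest with 1 sign in 4 sets, up to 4 members of each list by p, and up to 5 each way among genes called against ThPOK+ cells. The text gives those of them that serve as examples, and 1 of the 12 lowest genes is not reported here. Members and lists were chosen with earlier results of these data known. The number of arrays limits the precision. Alternatives were other background corrections and scalings, filters, array weights, no block, a Paneth and goblet covariate and leaving out arrays. No genome build was used, so no coordinates are given.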

Additional observations from a re-analysis of the deposited data

Results flagged for a closer look

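Among 109 groups of 4 set differences (genes and list means), 10 had 1 set further from the rest than Dixon's 95% critical value allows, and chance gives about 1 in 20. Of the 10, 7 were in WT replicate 2, the set with the epithelial signal on its CD8a+ array. In that set Il18r1 was at -4.51 (next set -0.66), BC031353 at -2.74 (next -0.73), Icos at -1.48 (next -0.54), Fcer1g at 1.33 (next 0.14) and Ceacam1 at 2.03 (next 0.43). The other Ceacam1 probe gave -0.49 in that set. The mean of the Th1 list was at -0.52 there (next -0.0029), and that of 4 B and plasma cell markers at 1.29 (next 0.11). In WT replicate 1, Smad7 was at -0.81 (next -0.34) and Mcm2 at 0.95 (next 0.24). In TR replicate 1, Gpd1 was at 0.62 (next 1.64). Their cause was not tested.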

How the results depend on the processing

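The count of genes called over both hosts was 0 under each alternative run, as were those within TR and for the host difference. Within WT it was 0 except for 274 without the CD8a+ array of replicate 1, so leaving out 1 array gave 0 to 274. Counts at an unadjusted p under 0.05 moved more. Over both hosts the 541 genes became 193 with no replicate block, 299 with the Paneth and goblet covariate and 1109 of all probes in the authors' deposited log2 table, and 401 to 666 when arrays or sets were left out. The higher share among them was 47.5%, and 59.8% under median scaling and 58.5% in the log2 table. With no replicate block the counts within WT, within TR and for the host difference were 423, 33 and 153, with 0 called in each. With replicate 1 exchanged they were 594 within WT and 362 within TR, and with no detection filter 331 within TR and 699 for the host difference. Leaving out 1 array gave 580 to 2048 within WT, 81 to 334 within TR and 205 to 1443 for the host difference. A lone array was then assumed to vary like the other groups.

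Of 2067 values of 77 genes under the alternatives, 2055 kept their direction and none passed the threshold. The 12 that reversed belonged to 5 genes. Cd8a was at -0.029 with the covariate. Ccr6 was at -0.055 with array weights, and between -0.21 and 0.40 when arrays or sets were left out, below 0 in 7 of these. Leaving out arrays or sets gave -0.22 to 0.023 for Cd4, -0.17 to 1.43 for Tnfsf10 and -0.075 to 1.26 for Glp1r. Their cause was not tested. The median of all genes was 0.03 under median scaling.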
